A study of Mus musculus with 15 samples.

Results

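The genes described here build the axoneme, the microtubule core of the sperm tail, or carry its parts into the growing tail. They were chosen by symbol: names starting with Dnah, Dnai, Dnal, Dnaaf, Cfap, Rsph, Tekt or Drc and followed by a digit or by a letter and a digit, or Ift followed by digits, with a mean of at least 10 normalised counts over the 15 libraries. The rule took 85 of the 36118 identifiers in the table, and all 85 belong to the 17896 genes whose mean reached 10. No symbol that matched the names fell below that mean, and the members nearest to it were Rsph4a at a mean of 16.8, Dnah11 at 37.0 and Cfap97d2 at 61.4 normalised counts. By subfamily they were 15 Dnah, 2 Dnai, 3 Dnal, 4 Dnaaf, 31 Cfap, 8 Rsph, 5 Tekt, 3 Drc and 14 Ift genes. The Dnai name took the genes listed as Dnaic1 and Dnaic2.

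An axoneme is a ring of microtubule doublets around a central pair. Outer and inner dynein arms on the doublets are the motors, built from heavy chains (Dnah) with intermediate and light chains (Dnai, Dnal) and put together in the cytoplasm by assembly factors (Dnaaf). Radial spokes (Rsph) and the nexin-dynein regulatory complex (Drc) pass signals between the central pair and the arms, tektins (Tekt) run inside the doublets, and many Cfap genes encode further parts of these structures. Intraflagellar transport (Ift) moves cargo along the axoneme in trains made of an A complex and a B complex, and mouse spermatids need it to assemble the tail. In the testis the transcripts come mainly from meiotic and post-meiotic germ cells.

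RNA was sequenced from whole testes of C57/BL6 mice in 5 groups of 3 libraries, labelled MTX, HMS-I1, AA, TSA and Control. The labels spell out none of the treatment names and give no dose, duration, age, transgene or deletion for any group. The titles call the HMS-I1 libraries replicates 1 to 3, while their treatment field numbers them HMS-I1, HMS-I2 and HMS-I3, so the n of 3 rests on the titles. Nothing states that replicates came from separate animals, so a p-value here measures the spread among these libraries alone, and that spread may be technical. Germ cell genes marked the tissue as testis: the spermatid genes Prm1 and Tnp1 had at least 26506 and 19232 normalised counts in every library. Of 14 genes listed for the epididymis and efferent duct, Lcn5, Lcn8 and Lcn10 were listed at 0 in all 15 libraries and 6 more had means under 10. The 5 that reached it summed to 11430 to 15805 normalised counts in the low-share and 2409 to 11325 in the high-share libraries, sets described in the next paragraph, and most of that was Cst8, which mouse germ cells also express.

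The libraries stood apart in a way the group labels do not give. In 6 libraries (replicate 1 of MTX, HMS-I1, AA and TSA, and Control replicates 1 and 2) the 13 mitochondrially encoded genes held 1.08% to 1.40% of the column sum, and in the other 9 they held 3.54% to 13.7%. The most frequent value under 4, near what a single read is worth, was 1.98 to 2.62 in the low-share libraries and 0.453 to 0.917 in the high-share libraries, a difference that moved with the share. Column sums of the normalised counts were 2.75e+07 to 4.06e+07, which are not depths. Each treatment has 1 low-share and 2 high-share libraries, against 2 and 1 in Control, so each difference from Control below mixes the group with the share, and the values within each set are given where they differ. No member was at 0 in any library, and the 85 genes together held 1.48% to 1.69% of a column.

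Testis transcribed nearly all of these genes at high levels. Means reached 1000 normalised counts in 73 members, and 78 of 85 lay above the median of all 17896 genes. Per kilobase of transcript, which allows genes to be compared, the median member stood at 1094 normalised counts per kb, against 152.8 for all genes tested. The spoke head gene Rsph1 was the highest at 26225 per kb, followed by Cfap206, a radial spoke part, at 12729, Cfap36 at 11886, Tekt1 at 8307 and the assembly factor Dnaaf1 at 7727. Counting reads without strand would add those of the antisense neighbour, and 33 members share exonic bases with a gene on the opposite strand, among them Dnaaf1 (20.7% of its exonic bases, with Taf1c), Tekt2 (20.8%) and Cfap298 (44.2%). The tektins had the highest subfamily median (4135 per kb) and the dynein heavy chains the lowest (401.0 per kb), while their unscaled means had a median of 6352 normalised counts in the tektins and 5162 in the heavy chains, whose transcripts are 12009 to 16685 bases long.

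Between paralogs with the same place in the axoneme the levels differed by orders of magnitude. The outer arm heavy chain Dnah8, known from sperm, averaged 2715 normalised counts per kb, and its paralog Dnah5, known from airway cilia, 5.94 per kb. Dnah17, the sperm form of the other outer arm heavy chain, stood at 810.8 per kb, while Dnah9 and Dnah11 of airway cilia stood at 16.6 and 2.63 per kb. The spoke head genes Rsph6a of sperm and Rsph4a of epithelial cilia stood at 1885 and 4.60 per kb. Dnah8 ranged in normalised counts over the 15 libraries between 32156 in MTX replicate 2 and 64280 in Control replicate 1, with a median of 45591. Dnah5 ranged between 24.3 in TSA replicate 3 and 176 in HMS-I1 replicate 1, so no library of Dnah5 came near the lowest of Dnah8. Of 10 genes listed for multiciliated epithelium, 5 had means under 10, and among these Mcidas reached at most 5.01, Trp73 10.08, Tmem212 1.25 and Scgb1a1 3.35 normalised counts and Gmnc 19.7. The other 5 summed to 4334 to 5407 normalised counts in the low-share and 1697 to 3548 in the high-share libraries. Most of that came from Dynlrb2 (mean 2035), a dynein light chain gene, and from Foxj1 (mean 1400), a driver of motile cilia, both of which the male germ line also expresses, while Cdc20b, Ccno and Myb had means of 81.8, 63.0 and 15.1.

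**Figure D1:**
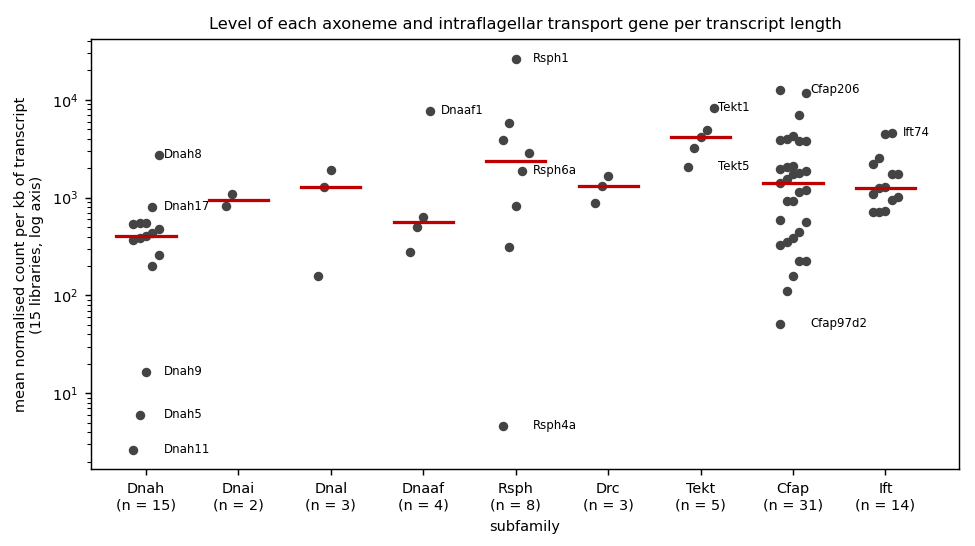
Mean normalised count per kb of transcript over the 15 libraries (log axis) for each of the 85 genes by subfamily. Each point is a gene and the red line is the subfamily median. Rsph1 is highest at 26225 per kb, and Dnah11, Rsph4a, Dnah5 and Dnah9 lie between 2.63 and 16.6 per kb, far below Dnah8 at 2715.

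Among the outer arm subunits the intermediate chains Dnaic1 and Dnaic2 averaged 1079 and 832 normalised counts per kb, the light chain Dnal4 1289 and Dnal1 159.6. Inner arm genes ran between 201.2 per kb (Dnah10) and 1939 per kb (Dnali1, a light intermediate chain), with a median of 417.8 over 10 genes. The assembly factors other than Dnaaf1 lay between 277.8 (Dnaaf5) and 633.8 per kb (Dnaaf3), with Dnaaf2 at 498.0. Drc1, Drc3 and Drc7 stood at 1670, 1320 and 872 per kb. The 3 genes of the transport A complex had 1731 (Ift122), 2223 (Ift140) and 4492 (Ift43) per kb, and the 11 of the B complex 717 to 4575 per kb, with Ift52 lowest, Ift74 highest and Ift172 at 2566. Parts of the central apparatus (Cfap46, Cfap54, Cfap69, Cfap74 and Cfap221) were lower, with a median of 349.8 per kb. Members not described further (Cfap45, Cfap52, Cfap57, Cfap61, Cfap65, Cfap70, Cfap97, Cfap99, Cfap157, Cfap161, Dnah2, Ift80 and Rsph10b) stood between 258.1 (Dnah2) and 3945 per kb (Cfap97). Their log2 differences from Control, described below for the other genes, ran between -0.58 (Rsph10b in TSA) and 0.27 (Cfap57 in TSA).

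Promoters are shown because many cilia genes carry the X-box, the palindrome bound by RFX factors, 2 of which (Rfx2 and Rfx3) are made in spermatids. RefSeq promoters of build GRCm38.p6, from 250 bases before to 50 after the start, were found for 70 of the 85 genes, which have 77 promoters in the table. The full X-box GTTNCCNNGGNAAC, read on both strands, was in 1 of 77 (1.30%, against 0.451% of all 32851 promoters), that of Cfap298, which encodes a dynein arm assembly factor. Its arm GTTGCC, which the full motif may contain, was in 29 of 77 (37.7%), against 12.5% of all promoters. The full pattern allows only the spacer NN and the arm letters given. Pairs of arms with other spacing or letters were not counted as X-boxes, among them a second pair in the Cfap298 promoter. The count is thus of this strict pattern alone. The cAMP response element TGACGTCA was in 2 (2.60%, against 1.79%), those of Dnah6 and Ift57, and the FOXJ1 motif GTAAACA was in 4 (5.19%, against 3.65%), those of Cfap20, Cfap43, Dnah17 and Tekt3. In the 5 promoters printed here capitals mark the X-box and GTTGCC or its reverse complement. Cfap298 (chr16:90934800-90935099, minus strand) holds the X-box at positions -188 to -175 from the start. Ift172 (chr5:31291065-31291364, minus strand) and Cfap100 (chr6:90428431-90428730, minus strand) hold GTTGCC, and both genes were lower in every high-share library than in any low-share library. Genes with GTTGCC went both ways, since Dnaaf5, Drc1 and Rsph3b also hold it and were higher in every high-share library. Tekt5 (chr16:10395406-10395705, minus strand) and Cfap97d1 (chr11:101986806-101987105, plus strand), low in the same TSA libraries as Cfap100, hold none of the 4 motifs in this window.
Cfap298: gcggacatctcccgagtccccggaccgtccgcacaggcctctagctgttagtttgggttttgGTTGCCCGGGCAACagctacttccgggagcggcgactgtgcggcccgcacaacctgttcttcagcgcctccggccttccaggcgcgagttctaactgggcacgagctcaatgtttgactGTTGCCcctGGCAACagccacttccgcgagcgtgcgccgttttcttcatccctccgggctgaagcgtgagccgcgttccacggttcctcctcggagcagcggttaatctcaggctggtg
Ift172: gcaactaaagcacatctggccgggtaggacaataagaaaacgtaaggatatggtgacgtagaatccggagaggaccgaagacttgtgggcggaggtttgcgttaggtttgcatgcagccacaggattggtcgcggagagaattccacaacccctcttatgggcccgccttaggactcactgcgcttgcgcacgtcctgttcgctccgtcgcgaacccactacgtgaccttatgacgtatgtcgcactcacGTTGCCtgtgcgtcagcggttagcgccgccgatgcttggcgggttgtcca
Cfap100: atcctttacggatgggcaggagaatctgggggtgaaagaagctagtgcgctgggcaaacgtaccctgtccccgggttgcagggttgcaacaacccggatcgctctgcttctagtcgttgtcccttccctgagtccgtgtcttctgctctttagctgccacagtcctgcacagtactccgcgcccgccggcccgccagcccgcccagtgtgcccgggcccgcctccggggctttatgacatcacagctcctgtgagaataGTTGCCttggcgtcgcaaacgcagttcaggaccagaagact
Tekt5: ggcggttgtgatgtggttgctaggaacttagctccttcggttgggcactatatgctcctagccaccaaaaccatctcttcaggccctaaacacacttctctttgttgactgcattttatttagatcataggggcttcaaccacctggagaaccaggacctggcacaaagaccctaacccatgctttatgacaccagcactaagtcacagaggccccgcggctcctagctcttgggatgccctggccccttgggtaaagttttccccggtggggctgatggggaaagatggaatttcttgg
Cfap97d1: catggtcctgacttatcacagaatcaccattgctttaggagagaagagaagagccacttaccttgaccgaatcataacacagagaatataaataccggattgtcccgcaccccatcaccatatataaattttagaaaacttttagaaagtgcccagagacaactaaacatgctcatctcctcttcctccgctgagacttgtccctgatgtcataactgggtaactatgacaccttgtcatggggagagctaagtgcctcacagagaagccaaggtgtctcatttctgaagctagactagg
Genes with GTTGCC (27 of the 70) had a median log2 difference from Control of -0.11 in TSA and genes without it -0.13. In AA the medians were -0.20 with it and -0.15 without it.

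Across the 15 libraries the split by mitochondrial share was the widest pattern among the 85 genes, and it cut through the subfamilies. The first principal component of their log2 values held 46.4% of the variance and separated the low-share from the high-share libraries, and the second held 28.8%. As differences of mean log2 values, low-share minus high-share, 46 genes were above 0 and 39 below, with a median of 0.06, against 0.00 over all genes tested. The 6 low-share libraries all lay above the 9 high-share libraries in 14 of 85 genes (16.5%, against 12.8% of all genes tested) and all below them in 6 (7.06%, against 12.0%). These shares lay near those of all genes, and no test was made, since the sets come from the same libraries.

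The transport gene Ift172, a B complex part, held 17497, 21327 and 23869 normalised counts (lowest, median, highest) in the low-share libraries and 4977, 8138 and 13259 in the high-share libraries. Its log2 difference was 1.25, and the ranges did not overlap. Rsph9 of the spoke head held 3280, 4173 and 4937 against 960, 1595 and 3001 normalised counts, a log2 difference of 1.21, again without overlap. Cfap100, the mouse gene of an inner arm modifier described in Chlamydomonas, held 1626, 1793 and 2542 against 93.0, 883 and 1034, a log2 difference of 1.69 that was the highest of the 85 genes. The other genes above in all low-share libraries were Cfap73, which pairs with Cfap100 in Chlamydomonas, the central apparatus genes Cfap46 and Cfap54, Cfap58, Cfap97d2, Dnah5, Dnah7a, Dnah7b, Dnah7c, Dnal4 and Rsph14, with log2 differences of 0.66 to 1.61. The heavy chains Dnah7a, Dnah7b and Dnah7c share 45.3% to 52.8% of their 31-base words with each other, so reads may be split among them and their separate values are uncertain.

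On the reverse side stood 2 of 4 assembly factors and 2 of 3 regulatory complex genes, with Ift22 and Rsph3b. Dnaaf1 held 11652, 15649 and 17248 normalised counts in the low-share libraries and 18043, 27175 and 35075 in the high-share libraries, without overlap. Dnaaf5 held 573, 599 and 628 against 862, 1203 and 1477, a log2 difference of -0.97, while Dnaaf2 and Dnaaf3 stood above 0, at 0.35 and 0.11, with overlapping ranges. Drc1 and Drc7 were also below in all low-share libraries, at -0.80 and -0.69, while Drc3 of the same complex was at 0.16 with overlapping ranges. Ift22 and Rsph3b stood at -0.64 and -0.70. Rsph3b and its paralog Rsph3a share 80.1% to 80.7% of their 31-base words and went opposite ways (Rsph3a 0.41), so both values are uncertain. In the other subfamilies the lowest member overlapped between the sets: Cfap126 stood at -1.01, Tekt2 at -0.96, Ift57 at -0.90, Dnah1 at -0.47, Dnaic2 at -0.38 and Dnali1 at -0.30. The highest members that overlapped were Tekt4 at 0.43 in its subfamily and Dnaic1 at -0.16.

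By role, all 5 central apparatus genes were higher in the low-share libraries (median log2 difference 0.66), as were 7 of 10 inner arm genes (0.37) and 6 of 9 outer arm genes (0.19). Only 1 of 3 Drc genes (median -0.69) and 4 of 10 radial spoke genes (-0.21) were higher there, and the 11 B complex genes were centred on -0.00492. Some marker lists moved with the share as well. The mean log2 level of 10 Sertoli genes was 8.87 to 9.16 in the low-share and 9.41 to 10.43 in the high-share libraries, and that of 6 peritubular genes 8.95 to 9.42 against 10.04 to 10.45, with no gene of either list at 0 in any library. In the other direction, the 5 tested genes of the epididymal list had a mean log2 level of 8.73 to 8.96 in the low-share and 7.66 to 8.27 in the high-share libraries, and the 5 of multiciliated epithelium 7.57 to 7.88 against 6.89 to 7.46, again with none at 0. The 10 spermatogonial genes went the way of the Sertoli genes, at 6.89 to 7.32 in the low-share and 7.33 to 8.06 in the high-share libraries. Lists of the later germ cells overlapped between the sets. Pachytene genes stood at 12.84 to 12.95 in the low-share and 12.60 to 13.01 in the high-share libraries. Round spermatid genes stood at 12.18 to 12.50 against 10.45 to 12.47, and elongating spermatid genes at 15.22 to 15.65 against 14.79 to 15.68. Gene by gene, most were still higher in the low-share libraries: 8 of 12 pachytene (median log2 difference 0.21), 10 of 12 round spermatid (0.43) and 8 of 12 elongating spermatid genes (0.23). The part of depth and of cell makeup in the differences between the sets was not tested.

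**Figure D2:**
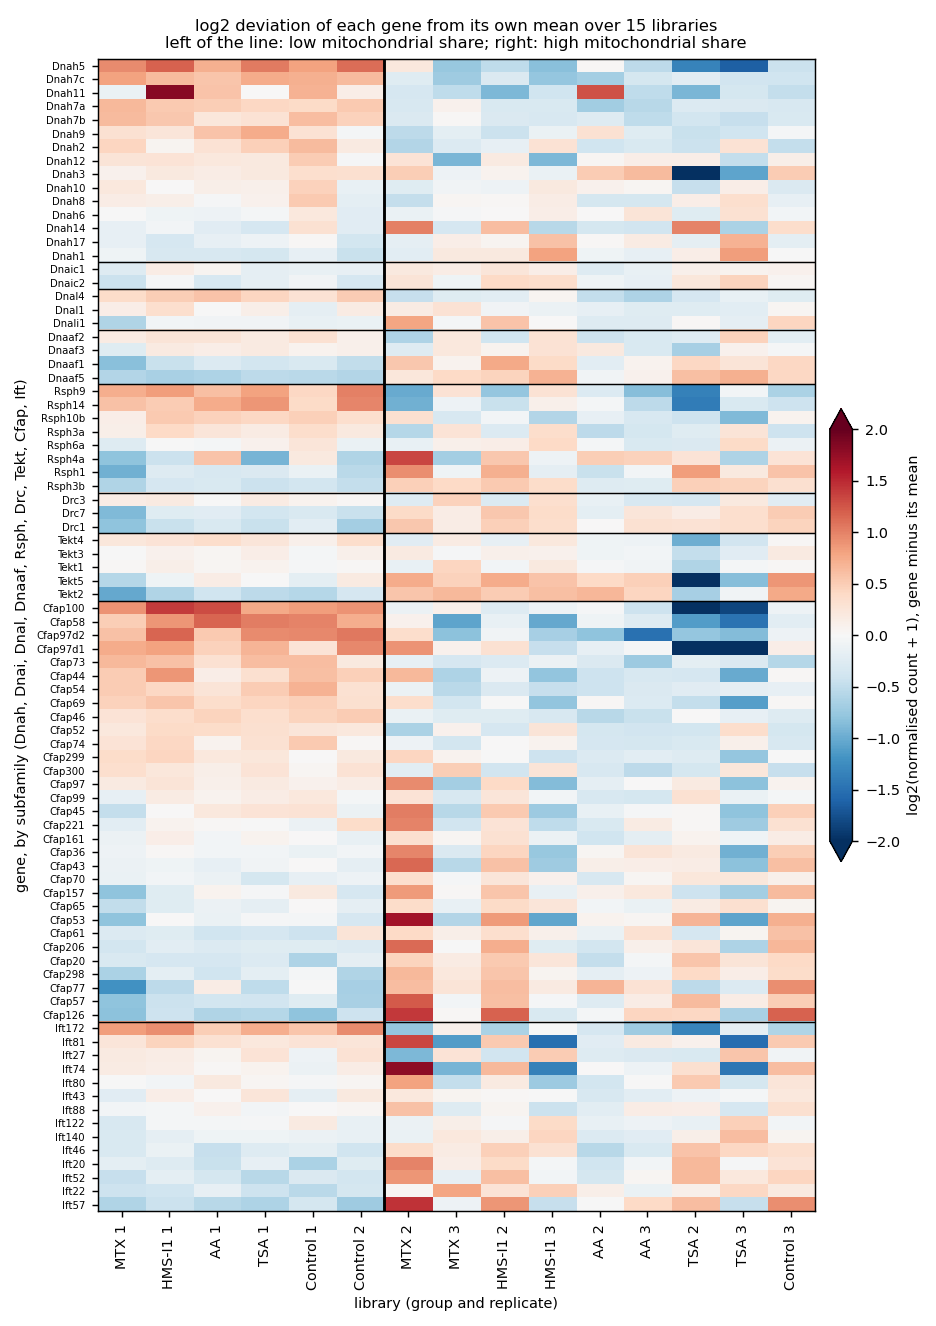
Heat map of the 85 genes (down the page, by subfamily and ordered within it by the difference between library sets) in the 15 libraries (across). Colour is the log2(normalised count + 1) of a gene minus its own mean over the libraries, and the black vertical line divides the 6 low-share from the 9 high-share libraries. Cfap100, Ift172 and Rsph9 are above their mean left of the line, Dnaaf5 and Drc1 below it, and TSA replicates 2 and 3 show the deepest values, in Dnah3, Tekt5, Cfap100 and Cfap97d1.

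Within the high-share set, replicates 2 and 3 of 3 treatments differed widely in a transport gene pair. Ift74 and Ift81 together form the tubulin-binding module of the B complex. Ift74 held 9484, 29106 and 4444 normalised counts in MTX replicates 1 to 3, 9233, 13264 and 3332 in HMS-I1, 8646, 8537 and 7919 in AA, 8904, 10585 and 3120 in TSA and 7837, 9419 and 12961 in Control. Replicate 3 was thus the lowest library of MTX, HMS-I1 and TSA, whereas the AA libraries lay close together and Control replicate 3 was the highest of its group. Ift81 was likewise lowest in replicate 3 of MTX, HMS-I1 and TSA, with 5337, 11499 and 2079 normalised counts in MTX, 6193, 6539 and 1593 in HMS-I1, 5627, 3870 and 5141 in AA, 5248, 4788 and 1568 in TSA and 5488, 5379 and 6518 in Control. As log2 differences of replicate 3 minus replicate 2, Ift74 stood at -2.71 in MTX, -1.99 in HMS-I1, -0.11 in AA and -1.76 in TSA. Cfap53, a protein inside the doublet microtubule, stood at -2.26, -1.88, -0.03 and -1.73 in the same order.

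The other transport genes were divided. Of the 14 Ift genes, 8 were lower in replicate 3 than in replicate 2 of MTX, HMS-I1 and TSA alike, and 3 of these (Ift74, Ift81 and Ift57) by at least 1 on the log2 scale in each of the 3 treatments. In AA 4 of 14 were lower. No share of all genes is given for the counts over the 3 treatments together. By treatment, differences of at least 1 either way were in 27.1% of the 85 genes in MTX (26.2% of all genes with a known transcript). They were in 14.1% in HMS-I1 (18.4%), 1.18% in AA (7.81%) and 15.3% in TSA (20.1%), so large differences were not more frequent than among all genes in HMS-I1, AA and TSA. Ift57 stood at -1.54 in MTX, -1.34 in HMS-I1, 0.40 in AA and -1.07 in TSA, and Ift80 at -1.28, -0.92, 0.36 and -0.87 in that order. Ift140 of the A complex held 12336, 13777 and 17650 normalised counts in MTX, 13467, 16552 and 20450 in HMS-I1, 14311, 12591 and 13020 in AA, 14258, 16412 and 23236 in TSA and 14022, 13682 and 15721 in Control, with replicate 3 the highest of MTX, HMS-I1, TSA and Control. The small GTPase gene Ift27 was at 1.17, 0.89, -0.04 and 0.86 (log2, replicate 3 minus 2, in MTX, HMS-I1, AA and TSA), and Rsph9 at 1.29, 1.06, -0.57 and 1.30. Over the 85 genes, 55 were lower in replicate 3 than in replicate 2 of MTX (64.7%, against 49.1% of 17841 genes with a known transcript), 54 in HMS-I1 (63.5%, against 49.9%), 38 in AA (44.7%, against 8034 of those 17841) and 42 in TSA (49.4%, against 45.5%). GC content of the transcript moved with these differences. Across the 85 genes, which are not independent replicates, Pearson's r between GC percent and the log2 difference was 0.51 in MTX, 0.54 in HMS-I1, -0.14 in AA and 0.53 in TSA (Spearman's rho 0.49, 0.53, -0.20 and 0.53), against 0.41, 0.46, -0.02 and 0.42 over all genes. Transcripts under 45% GC, such as those of Ift74 (41.6%) and Ift81 (43.2%), had medians of -1.01, -0.78, 0.12 and -0.61 over 16 genes, and those of 52% and over medians of 0.13, 0.16, 0.01 and 0.36 over 32. The part of GC content in the replicate differences was not tested.

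**Figure D3:**
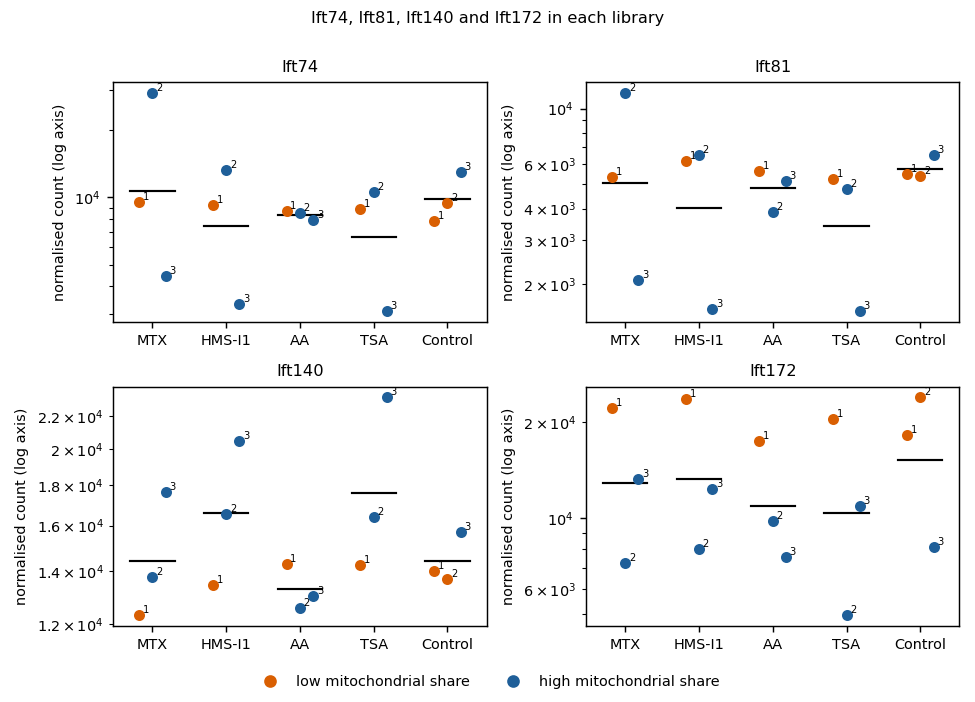
Normalised counts (log axis) of Ift74, Ift81, Ift140 and Ift172 in each library, with the replicate number beside each point and orange for low and blue for high mitochondrial share. The black line is the group mean on the log2 scale. Ift74 and Ift81 are lowest in replicate 3 of MTX, HMS-I1 and TSA, and Ift172 lies at 17497 or more normalised counts in the low-share libraries and at 13259 or less in the high-share libraries.

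Each treatment was set against Control to ask whether it moved these genes. None of the 85 passed the threshold in any treatment. limma, fitted over all 17896 genes, called 0 genes at an adjusted p under 0.05 (0% of all genes) in MTX, HMS-I1, AA and TSA and in an F-test among the 5 groups. At an unadjusted p under 0.05 it gave 0 of the 85 genes in MTX (0.548% of all genes), 0 in HMS-I1 (0.408%), 0 in AA (0.799%) and 4 in TSA (5.74%). The F-test gave 1 (1.29% of all genes), Dnah3. In whole testis, fewer cells of a type and less RNA per cell cannot be told apart. The differences below are of mean log2(normalised count + 1), with the standard error (SE) from limma, and the 4 comparisons share the Control libraries.

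**Figure D4:**
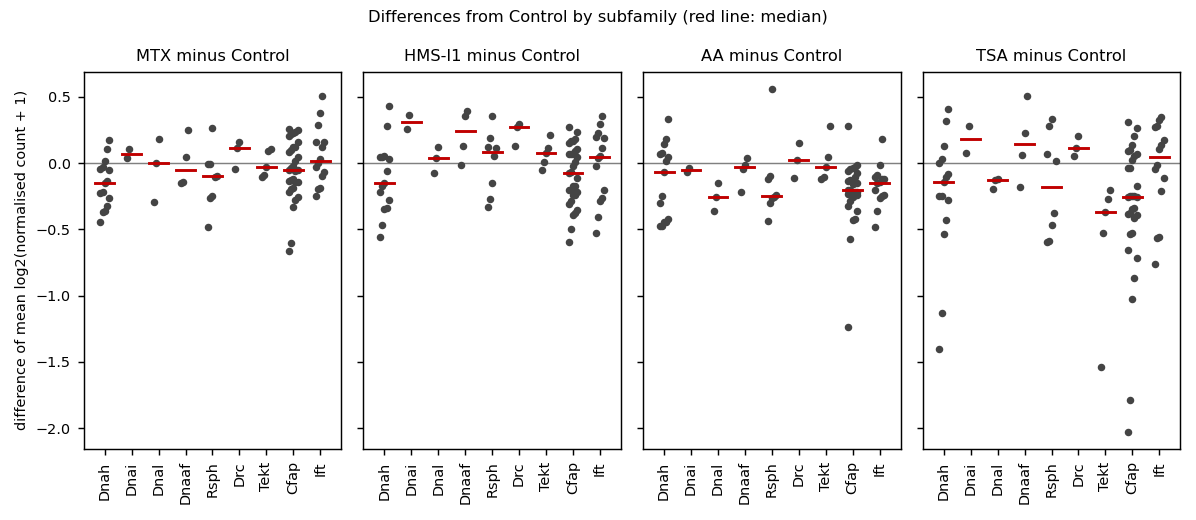
Difference of mean log2(normalised count + 1) from Control for each of the 85 genes in MTX, HMS-I1, AA and TSA, by subfamily. Each point is a gene and the red line is the subfamily median. The AA points lie mostly below 0, in 70 of 85 genes, and the lowest TSA points are Cfap100 (-2.02), Cfap97d1 (-1.79), Tekt5 (-1.54) and Dnah3 (-1.40).

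In MTX testes the median of the 85 genes was -0.04, against -0.01 over all genes tested, and 52 lay below 0 (61.2%, against 52.1% of all genes). The direction turned with single libraries: 36 lay below 0 without MTX replicate 1 (median 0.09), 40 without MTX replicate 3 (0.00691) and 40 without Control replicate 3 (0.03). The 5 genes with the smallest p on the upper side were Ift20, Ift22, Dnal1, Cfap300 and Cfap299, at log2 differences of 0.18 to 0.50. Ift20, a B complex part that is also found at the Golgi, had 1225, 2777 and 1524 normalised counts in MTX and 904, 1186 and 1692 in Control, with overlapping ranges and a log2 difference of 0.50 (SE 0.34). On the lower side were Cfap58, Cfap54, Dnah12, Cfap46 and Cfap97d2. Cfap58 had 3696, 2799 and 1273 normalised counts in MTX and 5248, 4354 and 2275 in Control, a log2 difference of -0.66 (SE 0.68). In no member were the 3 MTX libraries all above (1.32% of all genes were) or all below (1.15%) the 3 Control libraries. By subfamily, 12 of 15 Dnah genes and 7 of 8 Rsph genes lay below 0, with medians of -0.15 and -0.10. Within the low-share libraries the Dnah median was 0.01, and within the high-share libraries 0.00. The Rsph medians were -0.22 and 0.07 in the same order.

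In HMS-I1 testes the median was 0.04, against -0.02 over all genes tested, and 46 genes lay above 0 (54.1%, against 47.9%). The median was 0.07 within the low-share libraries and -0.06 within the high-share libraries. Without Control replicate 1 it was -0.04, with 40 genes above 0, and without HMS-I1 replicate 1 it was -0.00583, with 42 above 0. The dynein intermediate chains stood highest by median, at 0.31. Dnaic2 had 2303, 3089 and 3007 normalised counts in HMS-I1 and 2228, 1858 and 2418 in Control, a log2 difference of 0.36 (SE 0.23), with overlapping ranges. Dnaic1 had 2973, 3179 and 2962 in HMS-I1 and 2415, 2393 and 2851 in Control, a log2 difference of 0.25 (SE 0.19), and it was the only member with all 3 HMS-I1 libraries above Control (1.35% of all genes). Dnah3, an inner arm heavy chain, was the only member with all 3 below Control (1.35% of all genes), at 5607, 5155 and 4440 normalised counts in HMS-I1 and 6139, 6106 and 6931 in Control, a log2 difference of -0.34. Neither passed the threshold.

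The 3 Drc genes all lay above 0 in HMS-I1 testes (median 0.28), and 18 of 31 Cfap and 9 of 15 Dnah genes lay below it. Within the low-share and high-share libraries the medians were 0.13 and -0.03 in Drc and 0.08 and -0.21 in Cfap. Those of Dnah were -0.04 and 0.000493. Below 0 were 9 of 31 Cfap genes within the low-share set and 24 within the high-share set. Dnah1 (0.43, SE 0.32), Ift22 (0.36, SE 0.34) and Ift46 (0.29, SE 0.28) had the smallest p on the upper side after the intermediate chains. On the lower side these were Cfap54 (-0.39, SE 0.35), Ift88 (-0.26, SE 0.25), Cfap46 (-0.31, SE 0.31), Dnah12 (-0.35, SE 0.37) and Dnah7c (-0.47, SE 0.50). Across the 85 genes the HMS-I1 difference went with GC percent of the transcript, at Pearson's r of 0.54 (Spearman's rho 0.53), against 0.24 (0.31) over all genes. Dnah12 rested on replicate 3, since its log2 difference was 0.03 without HMS-I1 replicate 3 (and 0.06 without MTX replicate 3 in that comparison).

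In AA testes most of these genes stood below Control. Of the 85 genes 70 lay below 0 (82.4%, against 52.6% of all genes tested and 63.0% of the 6046 genes with a mean of 1000 or more), with a median log2 difference of -0.15 against -0.02 over all genes. Below 0 were 30 of 31 Cfap genes (median -0.20), 13 of 14 Ift genes (-0.15), 7 of 8 Rsph genes (-0.25) and all 3 Dnal genes (-0.25), against 8 of 15 Dnah (-0.07) and 1 of 3 Drc genes (0.02). The split depended on the scaling and on the libraries. With quantile scaling 51 lay below 0 (60.0%, against 49.6% of all genes), with a median of -0.03. Without Control replicate 3 there were 52 below 0 (against 50.8% of all genes) and the median was -0.07. Within the low-share libraries the median was -0.00387 and within the high-share libraries -0.25, where Control has a single library. The subfamilies also differed between the sets. Low-share and high-share medians were -0.01 and -0.33 in Cfap, -0.01 and -0.45 in Ift, and 0.04 and -0.04 in Rsph. They were 0.06 and -0.31 in Dnal, -0.10 and 0.06 in Dnah, and 0.14 and -0.29 in Drc. All 3 Drc genes thus lay below 0 within the high-share libraries.

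Markers of other cells also differed between AA and Control, though limma called none of them, and AA has more high-share libraries. Relative to Control, all 10 Sertoli genes lay above 0 (median log2 difference 0.31), as did 7 of 8 Leydig (0.50) and 7 of 8 macrophage genes (0.57), while 1 of 12 elongating spermatid genes did (-0.34). The other germ cell lists were divided. Above 0 were 9 of 10 spermatogonial genes (0.41), 1 of 12 pachytene genes (-0.17) and 4 of 12 round spermatid genes (-0.02). In HMS-I1, 8 of 10 Sertoli (0.26) and 7 of 8 Leydig genes (0.34) lay above 0 as well. Within the low-share set the Sertoli mean log2 level was 9.11 in AA, against 9.15 and 9.16 in Control. Within the high-share set it was 9.84 and 10.18 in AA, against 9.93. There the Leydig genes stood at 11.83 and 12.40 against 11.61, and the macrophage genes at 8.80 and 9.35 against 8.40. The part of these markers in the AA difference was not tested. No AA difference of a single gene had an unadjusted p under 0.05. Cfap44, part of the complex that tethers an inner arm in Tetrahymena and Chlamydomonas, had 3017, 2070 and 2211 normalised counts in AA and 4205, 3844 and 2804 in Control, with overlapping ranges and a log2 difference of -0.57 (SE 0.45). Ift46 had 2120, 1975 and 2349 in AA and 2549, 2212 and 3680 in Control, a log2 difference of -0.36 (SE 0.28), and Ift43 of the A complex differed by -0.25 (SE 0.20). Cfap46 stood at -0.42 (SE 0.31) and the weakly expressed Cfap97d2 at -1.23 (SE 0.68). Dnah14 was the only member with all 3 AA libraries below Control (2.23% of all genes), at 5259, 4832 and 4752 normalised counts in AA and 7680, 5306 and 7915 in Control. Rsph4a was the only member with all 3 above (2.81%), at 23.0, 21.8 and 21.3 normalised counts in AA and 17.4, 9.62 and 18.5 in Control. The upper side by p held Dnah17 (0.18, SE 0.28), Cfap77 (0.28, SE 0.49), Tekt2 (0.28, SE 0.50), Ift22 (0.18, SE 0.34) and Dnah9 (0.14, SE 0.36). With the library set as a term Cfap77, Tekt2 and Ift22 lay below 0, at -0.0045, -0.0602 and -0.0267.

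TSA testes held the largest single differences of the 85 genes in the 4 comparisons, and these came from TSA replicates 2 and 3. Dnah3 had 5617, 1066 and 2347 normalised counts in TSA and 6139, 6106 and 6931 in Control, with no overlap, and a log2 difference of -1.40 (SE 0.43, unadjusted p = 0.00649 and adjusted p = 0.848 by limma). Of the exonic bases of Dnah3, 10.5% are shared with Lyrm1 on the opposite strand. Cfap97d1, which mouse sperm tails need, had 6596, 646 and 1007 in TSA and 4940, 8009 and 4489 in Control, a log2 difference of -1.79 (SE 0.66). TSA replicate 1 lay inside the Control range, and the other 2 TSA libraries lay far below it.

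Tekt5, a tektin known from sperm, had 3192, 433 and 1779 normalised counts in TSA and 2806, 3644 and 5945 in Control, a log2 difference of -1.54 (SE 0.59). Cfap100 had 1626, 93.0 and 268 in TSA and 1712, 1799 and 900 in Control, a log2 difference of -2.02 (SE 0.83). These 4 genes were the members with an unadjusted p under 0.05, all lower (5.33% of all genes had such a p and were lower), and their adjusted p ran between 0.848 and 0.855 by limma. Ift81 also had no overlap with Control (2.18% of all genes did so on the lower side), and its TSA values are given above. No member had all 3 TSA libraries above Control (2.36% of all genes did).

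Without TSA replicate 1, limma called 992 of 17896 genes (5.54%), 991 of them lower. Among them were 4 of the 85 (4.71%), the same 4 genes: Cfap97d1 (log2 difference -2.80, adjusted p = 0.00418), Dnah3 (-2.01, 0.00490), Cfap100 (-3.14, 0.0135) and Tekt5 (-2.16, 0.0391). The 2 TSA libraries left are both of high mitochondrial share, against 1 of 3 Control libraries. Set only against the 7 other high-share libraries, the mean log2 level of TSA replicates 2 and 3 was lower by more than 1 in 5 of 85 genes (5.88%, against 11.4% of all genes), with Tekt5 at -2.48 and Cfap100 at -2.47. In 8 of the 85 genes both libraries lay below all 13 others (9.41%, against 11.0% of all genes): Cfap58, Dnah5, Tekt3 and Tekt4 beside those 4. In none did both lie above all others (2.84% of all genes did). The shares of the axoneme and transport genes among the low ones were thus not above those of all genes.

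Some germ cell and somatic marker lists stood apart in these 2 libraries, and others did not. The mean log2 level of 12 round spermatid genes was 10.45 and 11.34 in TSA replicates 2 and 3, against 12.08 to 12.47 in the other high-share libraries and 12.18 to 12.50 in the low-share libraries. That of 12 elongating spermatid genes was 14.79 to 15.12 against 14.94 to 15.68 in the other high-share libraries, that of 10 spermatogonial genes 7.85 to 8.06 against 7.33 to 7.84, and that of 12 pachytene genes 12.60 to 12.65 against 12.60 to 13.01. The 10 Sertoli genes had a mean log2 level of 10.23 to 10.43 in TSA replicates 2 and 3, against 9.41 to 10.18 in the other high-share libraries, without overlap. The other somatic lists overlapped between the same libraries. Leydig genes stood at 12.35 to 12.38 against 11.34 to 12.40, macrophage genes at 8.70 to 9.15 against 8.20 to 9.35, and peritubular genes at 10.07 to 10.45 against 10.04 to 10.40. Over all 3 TSA libraries, 10 of 10 Sertoli (median log2 difference 0.52) and 8 of 8 Leydig genes (0.52) lay above Control, though limma called none of them. In TSA replicate 1 the mean log2 level was 9.14 for Sertoli genes, against 9.15 and 9.16 in the low-share Control libraries. For Leydig genes it was 10.96, against 11.23 and 11.47. The acrosomal gene Acrv1 had 5956, 1019 and 2226 normalised counts in TSA and 4653, 7044 and 8276 in Control. The part of these marker changes in the lower axoneme genes was not tested.

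**Figure D5:**
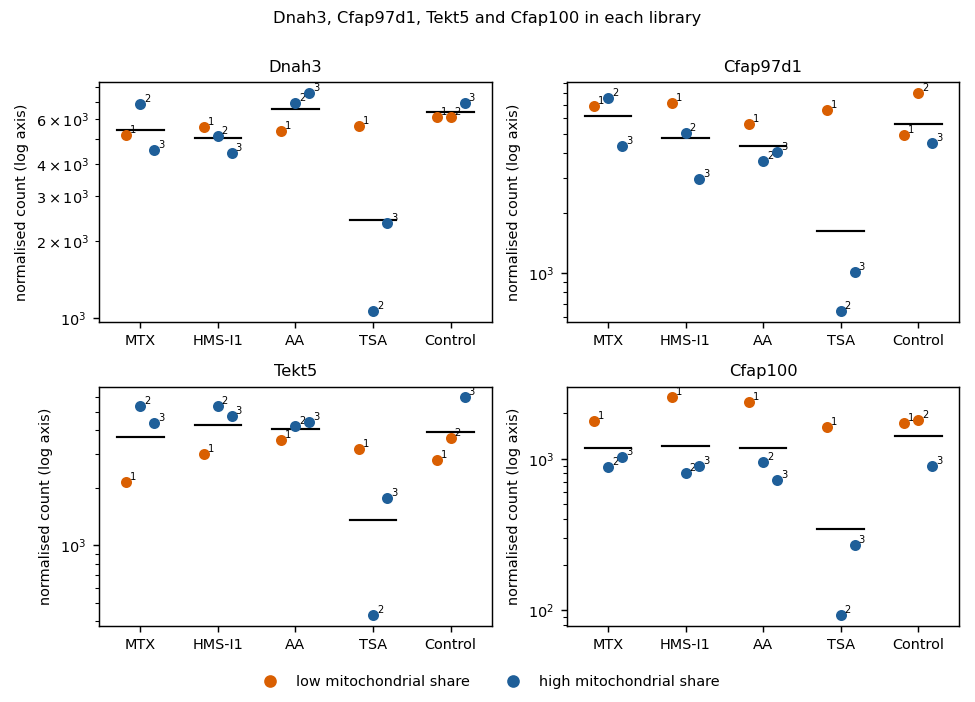
Normalised counts (log axis) of Dnah3, Cfap97d1, Tekt5 and Cfap100 in each library, with the replicate number beside each point and orange for low and blue for high mitochondrial share. The black line is the group mean on the log2 scale. In all 4 genes TSA replicates 2 and 3 lie below the other 13 libraries, while TSA replicate 1 lies among them.

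The rest of the 85 genes lay nearer to Control in TSA testes. Over all 85 genes, with Dnah3, Cfap97d1, Tekt5 and Cfap100 included here and below, the median log2 difference was -0.14, against 0.01 over all genes tested. Of the 85, 53 lay below 0 (62.4%, against 49.5%). With quantile scaling, which moved the median of all genes to 0.12, 44 lay below 0 (51.8%, against 40.5% of all genes), with a median of -0.03. All 5 tektins (median -0.37) and 22 of 31 Cfap genes (-0.25) lay below 0, while all 3 Drc genes (0.12) and both Dnai genes (0.18) lay above it. Tekt4 differed by -0.53 (SE 0.28). On the upper side the smallest p were those of Dnah1 (0.41, SE 0.32), Ift140 (0.28, SE 0.23), Dnaic2 (0.28, SE 0.23), Dnah17 (0.32, SE 0.28) and Ift46 (0.32, SE 0.28). Dnah17 had 11041, 10524 and 19321 normalised counts in TSA and 12109, 9217 and 10335 in Control, so its higher mean rested on TSA replicate 3. Within the low-share libraries the median of the 85 genes was 0.03 and within the high-share libraries -0.15. In the same order the medians were 0.03 and -0.71 in Tekt and 0.05 and -0.65 in Cfap. They were 0.00740 and -0.13 in Drc and -0.00206 and 0.15 in Dnai, so that of Drc turned.

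Genes of the same structures under other names were counted from lists of 111 symbols, of which 94 were tested. limma called 0 of the 40 other axoneme genes, 13 other assembly factors, 31 other transport genes and 10 regulators of cilia genes in any comparison. At an unadjusted p under 0.05 these lists held 1 gene in MTX (0.548% of all genes), none in HMS-I1 (0.408%) or AA (0.799%), and 4 in TSA (5.74%). The MTX gene was Nme7, a protein of the doublet lumen, which averaged 3831 ± 231 in MTX testes against 2827 ± 247 in Control testes, as normalised counts with the SD of 3 libraries each. Its log2 difference was 0.44 (SE 0.16, limma adjusted p = 1.00). In TSA they were Efhc2 (-1.26, SE 0.38), the central pair gene Spag6 (-0.83, SE 0.37), the kinesin-associated Kifap3 (-0.77, SE 0.31) and Rfx3 (-0.94, SE 0.37), with limma adjusted p between 0.848 and 0.871. Rfx3, a factor that binds the X-box, had 1086, 333 and 527 normalised counts in TSA and 1148, 1398 and 844 in Control. Rfx2, its relative, had 3810, 4679 and 4445 in TSA and 4362, 3741 and 4697 in Control, with overlapping ranges. Of the other axoneme genes, 8 of 40 lay above 0 in TSA (median -0.27) and 6 of 40 in AA (-0.15).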

How the data were processed

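The labels' protocols describe Trizol extraction of whole testis RNA, a column clean-up, Illumina library preparation and NovaSeq sequencing. The authors deposited a table of signal values, normalised counts that are not whole numbers, in which each library has a column. FastQC 0.11.9, Salmon 0.12.0, DESeq2 1.34.0 and the build GRCm39 are named per the submitters' processing notes. The strand setting was not given in the sources used here. Whole reads could not be recovered, so depth is unknown and no counting interval is given.

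Of the 36118 identifiers, 35825 were matched by Ensembl number to symbols, transcript lengths and GC content in an annotation of GRCm38. Its exon positions gave the exonic bases shared with genes on the opposite strand. Libraries were grouped by their titles. Tests used log2(normalised count + 1). On this scale the change of low genes is understated. Genes whose mean reached 10 (17896) were fitted with limma 3.58.1 in R 4.3.3 (trended eBayes, 5 group means in 1 model, two-sided, Benjamini-Hochberg adjustment over all genes tested, threshold 0.05), which was tested on simulated data. Libraries were also divided at the widest gap in the share of the 13 mitochondrially encoded genes. Motifs were read from RefSeq promoters of GRCm38.p6.

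Genes named are, in each comparison, the 5 higher and 5 lower members with the smallest p and a mean of at least 50, in each subfamily the 2 highest by mean and the highest and lowest by the difference between library sets, the 3 members nearest the mean of 10, the sperm-type and cilia-type paralogs, and the related genes with the smallest p. Ift74, Ift81, Cfap53, Ift27 and the members low in TSA replicates 2 and 3 were added after their values were seen. The members and lists were chosen with earlier results of these data known. Alternatives tried were the pseudocount, the filter, the scaling, the library set, library weights, only the compared groups, the replicate block and leaving out each library.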

Additional observations from a re-analysis of the deposited data

How the results depend on the processing

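The calls depended on which TSA libraries were kept and on library weights. Leaving out each library in turn, limma called 0 to 992 genes in TSA and 0 to 4 of the 85 (4 without TSA replicate 1), 0 to 246 genes and 0 to 2 of the 85 (Cfap97d1 and Dnah3, without TSA replicate 1) in the F-test, and 0 to 1 gene with 0 of the 85 in MTX, HMS-I1 and AA. The median log2 difference of the 85 genes then ran between -0.14 and 0.09 in MTX, -0.04 and 0.04 in HMS-I1, -0.19 and -0.07 in AA, and -0.22 and -0.04 in TSA. With library weights 6645 genes and 27 of the 85 were called in AA, 4234 and 16 in TSA and 5640 and 32 in the F-test, but a single library, AA replicate 2, then had a weight of 38.8 and the fit of the weights gave a warning. With only the compared groups in the model 1 gene was called in MTX, 2 in AA and 1 in TSA, none of them among the 85. Within the low-share libraries alone the median of the 85 genes was -0.00387 in AA and 0.0309 in TSA.

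The replicate block gave 0 calls in all comparisons, alone and with the library set as a term. Alone it left the medians of the 85 genes at -0.04 in MTX, 0.04 in HMS-I1, -0.15 in AA and -0.14 in TSA, and with that term they were -0.09, -0.00653, -0.21 and -0.14 in the same order, so that of HMS-I1 turned. The replicate numbers were not taken to pair the samples. Deviations of the treated replicates numbered 2 correlated at -0.58 to -0.30 with that of Control replicate 2. The correlations were 0.41 to 0.52 for replicates 1 and 0.21 to 0.67 for replicates 3. These values cannot decide on a pairing. Treated and Control libraries lie in the same library set for replicates 1 and 3 but in different sets for replicates 2. Of 680 recomputed differences of single named genes, 672 kept their direction and 8 turned. Leaving out single libraries, the range was -0.526 to 0.0640 for Dnah12 in MTX, -0.56 to 0.0273 for Dnah12 in HMS-I1, -0.0924 to 0.705 for Cfap77 in AA and -0.0362 to 0.370 for Dnah9 in AA, with the turns without replicate 3 of MTX and of HMS-I1, Control replicate 2 and AA replicate 1. With the library set as a term Cfap77 (-0.0045), Tekt2 (-0.0602) and Ift22 (-0.0267) turned in AA, and Cfap77 also with that term and the replicate block (-0.277). In 19 the threshold was passed, all in TSA or AA, with library weights or without TSA replicate 1. The causes were not tested. Depth is unknown, and Rsph4a, Dnah11 and Cfap97d2 rest on the lowest values.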
